A study of Mus musculus with 8 samples.

Results

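Myosin light chains and light chain kinases form a family of 10 genes taken here by name, whatever their values, from an expression table of 27179 genes: *Myl1*, *Myl2*, *Myl3*, *Myl4*, *Mylpf*, *Myl6*, *Myl6b*, *Myl9*, *Mylk* and *Mylk2*. All 10 had an entry in the table, and 9 of them were among the 11406 genes that passed the filter on low values and could be tested. They were measured in C2C12 myoblasts, an immortalized mouse line, grown on collagen in high glucose DMEM. Cells in growth medium (GM) were collected at 50% confluence in 10% fetal bovine serum, and cells in differentiation medium (3d DM) were collected 3 days after a culture above 90% confluence was moved to 2% horse serum. Each state had 2 input libraries of polyadenylated RNA, used for expression, and 2 libraries precipitated with an antibody against N6-methyladenosine (m6A), each with a list of m6A peaks called against its own input. Confluence, serum and time changed together, so their effects cannot be told apart. The labels number the replicates without saying whether they were separate cultures, so the p-values rest on these libraries alone, whose spread may be technical.

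Conventional myosin, the kind meant here, is built from heavy chains whose lever arms each carry an essential and a regulatory light chain. Striated muscle fills these places with sarcomeric isoforms, while smooth muscle and nonmuscle cells use another set that serves cell shape, migration and division. Phosphorylation of the regulatory chain by its kinase turns smooth muscle and nonmuscle myosin on and tunes force in skeletal muscle, and a myosin phosphatase reverses it.

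The state of the cultures was checked first with *Myog* and *Ckm*, which mark differentiation, and with *Mki67*, which marks dividing cells. The normalized signal of *Myog* was 1008 and 221 in GM against 5392 and 11502 in 3d DM. That of *Mki67* was 3586 and 3659 in GM against 446 and 760 in 3d DM. All 5 myotube markers were higher in 3d DM and all 3 markers of dividing cells were higher in GM (limma adjusted p under 0.05). The GM cultures were not alike in this respect, because the 5 myotube markers were between 3.72 times (*Acta1*) and 6.88 times (*Mymk*) as high in GM replicate 1 as in GM replicate 2. Of 3 tested smooth muscle markers of 6 listed, 2 were higher in 3d DM, with a summed signal of 5603 and 11771 in GM against 15865 and 28231 in 3d DM, while the defining *Myh11* and *Myocd* did not exceed 6.01 in any library. Of 3 tested heart markers of 7 listed, 2 (*Tnnt2* and *Myh6*) were higher in 3d DM, with sums of 1612 and 1158 against 15915 and 17191, while *Nppa* did not exceed 3.41. Most of these sums was *Tnnt2*, at 1310 and 875 in GM against 15400 and 16409 in 3d DM. The third tested, *Gata4*, was 249 and 218 in GM against 112 and 176 in 3d DM and did not pass (limma adjusted p = 0.36). Among the untested, *Nppb* and *Nkx2-5* were also higher in both GM libraries. Fibroblast markers, of which 2 of 3 tested were higher in 3d DM, summed to 665 and 205 in GM against 1633 and 2285 in 3d DM. Of 4 fat cell markers, *Adipoq*, *Fabp4* and *Plin1* were listed at 0 throughout. The 1 tested, *Pparg*, was higher in GM, at 146.1 and 135.5 against 44.5 and 49.3 in 3d DM (limma adjusted p = 0.0218). The part of these differences in the results below was not tested. In bulk RNA, more differentiated cells and more RNA in each of them cannot be told apart.

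Of the 5 sarcomeric light chains, 4 rose with differentiation, joined by *Myl6b* and *Mylk*, and no member passed the test as lower. Of the 9 tested, 6 were higher in 3d DM at a limma adjusted p under 0.05, beside 7.01% of all tested genes, and 0 were higher in GM, beside 9.96%. *Myl2* and *Mylk* were under the filter's value of 25.1 in both GM libraries and were tested only through 3d DM, a selection that favours a difference. With the study's own filter, which asks for 3 libraries, 4 of the 7 tested members were higher in 3d DM, beside 4.87% of all tested genes. After median-of-ratios rescaling of the libraries the same 6 members were higher in 3d DM, beside 12.1% of all tested genes. Their limma adjusted p-values then ran from 0.000145 (*Myl4*) to 0.00372 (*Myl1*), far larger than those without rescaling given below. Without 3d DM replicate 1, 2 members were called. Both 3d DM libraries lay above both GM libraries for these 6, an order seen in 16.8% of all tested genes. They were the fast skeletal isoforms *Myl1* and *Mylpf*, the embryonic and atrial *Myl4*, the slow and ventricular *Myl2*, and 2 genes that are not confined to the sarcomere, *Myl6b* and *Mylk*. At an unadjusted limma p under 0.05, 1 member, *Myl6*, was higher in GM. The median log2 fold change (3d DM minus GM) was 3.97 over the 7 members that pass with 3 libraries, where that of all genes was -0.23, and was -0.22 over all 11406 genes. The rescaling moves the median of all genes by 0.20. The limma SE of the tested members ran from 0.40 to 0.68 and follows the intensity trend of all genes. Their own pooled replicate SD ran from 0.33 to 1.19 on the log2 scale. It was 1.19 for *Myl1*, 0.84 for *Myl6b*, 0.68 for *Mylk* and 0.97 for *Mylk2*. Across all tested genes the Spearman rho between this SE and the own replicate SD was 0.25.

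*Mylpf* (Entrez 17907, mm10 chr7:127208848-127214288) encodes the fast skeletal regulatory light chain. Its signal was 2055 and 438 in GM against 52875 and 49642 in 3d DM. Every 3d DM library lay above every GM library, and the lower 3d DM value was 24.2 times the higher GM value. The log2 fold change was 5.75 ± 0.40 (SE, limma adjusted p = 6.05e-43), but this SE follows the intensity trend of all genes, while the gene's own replicates differed with a pooled SD of 1.12 on the log2 scale. The limma adjusted p was 0.00205 after median-of-ratios rescaling and 0.0520 without 3d DM replicate 1, where the call was lost.

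*Myl1* (Entrez 17901, mm10 chr1:66924295-66947932) encodes the fast skeletal essential light chains. Its signal was 937 and 179 in GM against 12163 and 11893 in 3d DM. Means were 558 ± 536 and 12028 ± 191 (SD, n = 2 libraries each). The states did not overlap, and the log2 fold change was 4.87 ± 0.41 (SE, limma adjusted p = 1.89e-29). The call was lost when either 3d DM library was left out, with limma adjusted p-values of 0.0700 without replicate 1 and 0.0534 without replicate 2, although the log2 fold change stayed at 4.86 and 4.89.

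*Myl4* (Entrez 17896, mm10 chr11:104546017-104587215) encodes the essential light chain of embryonic skeletal muscle and of the atrium. Its signal was 138 and 88.3 in growth medium and reached 17984 and 21267 in 3d DM. With the lower 3d DM value 130.0 times the higher GM value, it had the largest log2 fold change among the members measured above 0 in both states, 7.46 ± 0.42 (SE, limma adjusted p = 4.42e-66). After median-of-ratios rescaling *Myl4* had a limma adjusted p of 0.000145. It was called in all 13 alternative fits.

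*Myl2* (Entrez 17906, mm10 chr5:122092724-122113473), the regulatory chain of slow fibres and of the ventricle, was listed at 0 in both GM libraries and had a signal of 507 and 322 in 3d DM (limma adjusted p = 1.26e-34). It was tested only through 3d DM, a selection that favours a difference, and with the filter on 3 libraries it was not tested. No fold is given for *Myl2*, since its GM values are listed at 0. *Myl3* (Entrez 17897, mm10 chr9:110763678-110769802), the essential chain of the same muscles, was also listed at 0 in GM and had only 1.90 and 11.6 in 3d DM, under the value that the filter asks for. Per kb of exon, the regulatory chain of this pair stood at 315 and 200 in 3d DM and its essential partner at 1.52 and 9.28.

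**Figure D1:**
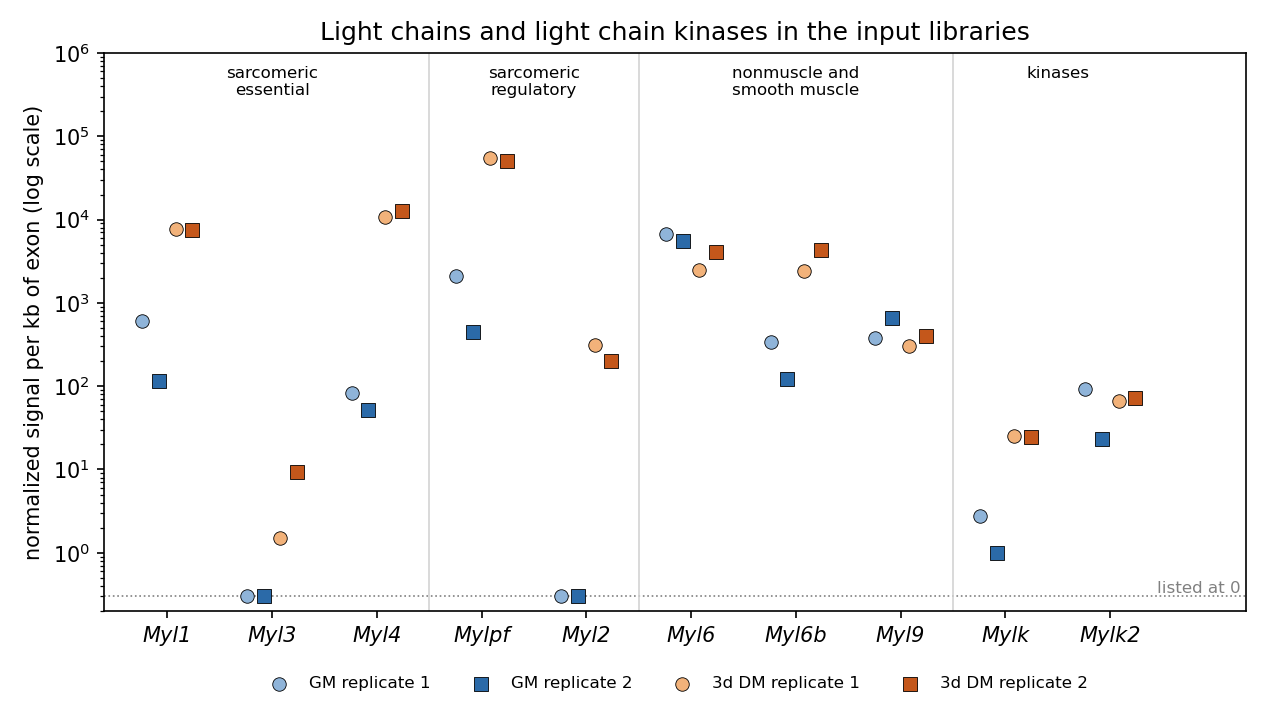
Normalized signal per kb of merged exons (y axis, log scale) of the 10 genes in the 4 input libraries, with circles for replicate 1 and squares for replicate 2, GM in blue and 3d DM in orange. Points on the dotted line are listed at 0. *Mylpf* reached 54398 and 51072 per kb in 3d DM, and *Myl6* is the gene with both GM points above both 3d DM points.

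Of the 3 nonmuscle and smooth muscle chains, 1 rose and 2 did not pass the test. *Myl6* (Entrez 17904, mm10 chr10:128490859-128493886) encodes the essential light chain of nonmuscle and smooth muscle myosin. Its signal was 11278 and 9267 in GM against 4249 and 6871 in 3d DM. It was the 1 family member whose GM values both exceeded both 3d DM values, an arrangement found in 37.0% of all tested genes. The log2 fold change of -0.92 ± 0.40 (SE) did not pass, with a limma adjusted p of 0.106.

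*Myl6b* (Entrez 216459, mm10 chr10:128494157-128498685) lies 270 bp from *Myl6* on the same strand and encodes an essential chain found in slow skeletal muscle and in nonmuscle tissue. Its signal was 347 and 127 in GM against 2457 and 4414 in 3d DM. Next to a gene that did not pass, *Myl6b* rose by a log2 fold change of 3.97 ± 0.43 (SE, limma adjusted p = 4.29e-18) with no overlap between the states. Without 3d DM replicate 1 the call was lost (limma adjusted p = 0.0511).

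*Myl9* (Entrez 98932, mm10 chr2:156775408-156781657), the regulatory chain of smooth muscle, had 431 and 735 in GM against 345 and 455 in 3d DM. The ranges overlapped, and the log2 fold change of -0.51 ± 0.45 (SE) did not pass (limma adjusted p = 0.538). *Acta2*, a smooth muscle actin that early muscle cells also make, was 4651 and 9636 in GM against 13987 and 25285 in 3d DM and rose (limma adjusted p = 0.00212).

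Of the 2 kinases, *Mylk* rose and *Mylk2* did not pass the test. *Mylk* (Entrez 107589, mm10 chr16:34745199-35002436) encodes the smooth muscle and nonmuscle kinase, and its gene-level value may also count the short internal product telokin, which has no kinase activity. Its signal rose from 22.3 and 8.04 in GM to 202 and 201 in 3d DM, a log2 fold change of 3.80 ± 0.56 (SE, limma adjusted p = 7.50e-10). Both GM values were under the filter's 25.1, and with the filter on 3 libraries it was not tested. Like *Myl1*, it lost its call when 3d DM replicate 1 or 2 was left out, at limma adjusted p-values of 0.0767 and 0.0560.

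*Mylk2* (Entrez 228785, mm10 chr2:152911281-152923065), the kinase of skeletal muscle, had 270 and 69.3 in GM against 196 and 214 in 3d DM. Both 3d DM values lay between the GM values, and the log2 fold change of 0.58 ± 0.48 (SE) did not pass (limma adjusted p = 0.508). Its direction depended on 1 library, and turned to a log2 fold change of -0.40 once GM replicate 2 was left out.

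The promoters of the family were read from RefSeq sequences (build GRCm38.p6) that run from 250 bases before to 50 after an annotated start. They cover 9 of the 10 genes with 11 starts, and *Mylk2* is named only. A start used can lie inside the gene span given above, as for *Mylpf* (chr7:127211608), *Myl1* (chr1:66945056) and *Myl9* (chr2:156775464). The E-box CANNTG, the kind of site bound by MyoD and myogenin, reads the same on both strands and was found in 72.3% of all 32851 promoters. Of the members it was present in 7, the called *Myl1*, *Myl2*, *Mylpf* and *Myl6b* and also *Myl3*, *Myl6* and *Myl9*. It was not in the windows of *Myl4* and *Mylk*, both of which rose. The form CAGCTG was in 16.3% of all promoters and in those of *Myl1*, *Myl2* and *Mylpf*. The stretches around it in the fast skeletal pair and *Myl2* are shown, since these genes rose together, with the E-box in capitals and the bases before the start counted to its first base.
Mylpf, 51 bases before the start, plus strand, chr7:127211546-127211574: ttcctgggctcCAGCTGctgcaggcctcc
Myl1, 224 bases before the start, minus strand, chr1:66945263-66945291: ggtacgtctgtCAGCTGtcaccaaaccaa
Myl2, 130 bases before its second start, plus strand, chr5:122093048-122093076: aggtcaggccaCAGCTGtcgctggcatct

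A CArG box, the site of serum response factor, was in 1.63% of all promoters and in those of *Myl3*, *Myl6* and *Myl9*. A MEF2 site was in 3.19% of all promoters and in none of the members' windows. The CArG boxes of the nonmuscle and smooth muscle chains *Myl9* and *Myl6*, which did not pass the test, and of the barely detected *Myl3* are shown in capitals.
Myl9, 161 bases before the start, plus strand, chr2:156775294-156775322: aagcagaggCCTAATAAGGccgggctggc
Myl6, 50 bases before its second start, minus strand, chr10:128493040-128493068: ctcttacttCCTTATATGGgcaggaccta
Myl3, 85 bases before the start, plus strand, chr9:110763584-110763612: agccaatgcCCTTTTATGGccctgtccct

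These matches describe letters only, and no binding was measured.

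Within GM, replicate 1 stood above replicate 2 for each called member detected there. The ratio of replicate 1 to replicate 2 in GM was 5.25 for *Myl1*, 4.70 for *Mylpf*, 3.89 for *Mylk2*, 2.77 for *Mylk*, 2.75 for *Myl6b* and 1.56 for *Myl4*. It was 1.22 for *Myl6* and 0.586 for *Myl9*. Only the ratios of *Myl1*, *Mylpf* and *Mylk2* lay within the 3.72 to 6.88 of the myotube markers, and the rest were lower. On the log2 scale the median-of-ratios factors of the GM libraries were 0.2431 for replicate 1 and -0.0371 for replicate 2. A typical gene was thus also somewhat higher in replicate 1. A common source was not tested. The 6 called members were called whichever GM library was left out, while 2 were called without 3d DM replicate 1 and 4 without 3d DM replicate 2.

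Levels of different genes were compared per kb of merged exons. In GM the order by mean was *Myl6*, *Mylpf*, *Myl9*, *Myl1*, *Myl6b*, *Myl4*, *Mylk2* and *Mylk*, with *Myl2* and *Myl3* listed at 0. *Myl6*, at 6673 and 5483 per kb, was above *Mylpf*, at 2114 and 450, in each library, whereas the ranges of *Mylpf* and *Myl9*, of *Myl9* and *Myl1*, of *Myl1* and *Myl6b*, and of *Myl4* and *Mylk2* overlapped. Those of *Myl6b* and *Myl4* and of *Mylk2* and *Mylk* did not. In 3d DM *Mylpf* came first at 54398 and 51072 per kb. It was followed by *Myl4* at 10654 and 12599, then by *Myl1* at 7752 and 7580, none of which overlapped. *Myl6b* and *Myl6* came next with overlapping ranges, then *Myl9* and *Myl2*, which also overlapped, and then *Mylk2*, *Mylk* and *Myl3*, which did not.

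The essential chains *Myl1* and *Myl4* changed places between the states. *Myl1* exceeded *Myl4* per kb in both GM libraries (597 against 81.7, and 114 against 52.3), and *Myl4* exceeded *Myl1* in both 3d DM libraries. *Myl6* exceeded *Myl6b* in both GM libraries (6673 against 339, and 5483 against 123). In 3d DM the levels per kb lay side by side, at 2514 against 2395 in replicate 1 and 4066 against 4302 in replicate 2. This closeness depends on the length used, 1690 bases of merged exons for *Myl6* and 1026 for *Myl6b*. The longest *Myl6* transcript has 1668 nt, and the others with peak lines have 562 to 692 nt. Before division by length *Myl6* was higher in both 3d DM libraries, at 4249 against 2457 and 6871 against 4414.

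The sarcomeric chains (*Myl1*, *Myl2*, *Myl3*, *Myl4* and *Mylpf*) made up 27.4% and 8.97% of the signal per kb of the 8 light chains among the 10 genes in GM against 93.3% and 89.1% in 3d DM. This share does not depend on how a library was scaled. The difference of 73.0 percentage points (18.2% ± 13 against 91.2% ± 3.02, SD, n = 2 each) separated the states completely, but a two-sided exact permutation test of 2 libraries against 2 cannot give less than its p of 0.33. With *Myl7*, *Myl10*, *Myl12a* and *Myl12b*, the other light chain genes measured, added to the total, the difference was 74.3 points (15.1% against 89.4%). With values not divided by length it was 76.4 points (13.6% against 89.9%) for the 8 chains.

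The same share was taken within each kind of chain, where it depends on which chains are counted. The sarcomeric share of the essential chains was 8.83% and 2.88% in GM against 78.9% and 70.7% in 3d DM. *Myl6b*, found in slow skeletal muscle too, is counted here outside the sarcomeric chains, which lowers this share. Among *Mylpf*, *Myl2* and *Myl9* it was 84.7% and 40.9% in GM against 99.4% and 99.2% in 3d DM. With the added regulatory chains, of which *Myl12a* and *Myl12b* were well detected, it was 45.8% and 18.2% in GM against 97.2% and 95.7% in 3d DM, an addition made after the data were seen. The means differed by 69.0 percentage points among the essential chains, and among the regulatory chains by 36.5 without and 64.5 with these additions. By gene, *Myl6* went from 65.5% and 79.8% of the signal of the 8 chains to 3.21% and 5.07%, and *Mylpf* from 20.8% and 6.55% to 69.4% and 63.7%. With the additions *Myl6* went from 54.2% and 66.4% to 3.16% and 4.95%, and *Mylpf* from 17.2% and 5.46% to 68.3% and 62.2%.

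**Figure D2:**
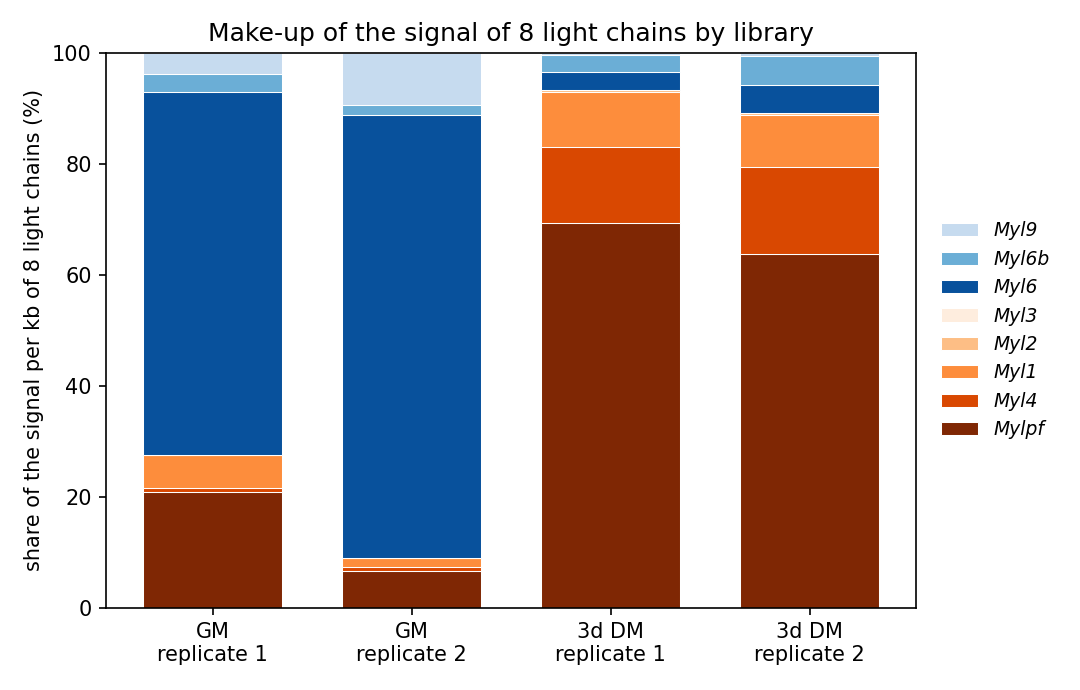
Share of the summed signal per kb of the 8 light chains among the 10 genes (y axis, percent) held by each of them in each input library. Sarcomeric chains are in orange tones and nonmuscle and smooth muscle chains in blue, and the orange part grows from 27.4% and 8.97% in GM to 93.3% and 89.1% in 3d DM.

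The genes that work with the light chains were taken from a list of 47, of which 39 could be tested. In 3d DM 17 were higher, 1 was lower, and 21 did not pass (limma adjusted p under 0.05). Of all tested genes, 7.01% were higher and 9.96% lower. Of the 17, 10 were under the filter's value in both GM libraries and were tested only through 3d DM. With the filter on 3 libraries 7 of 29 tested were higher, beside 4.87% of all tested genes, and 1 was lower. The median log2 fold change of those 29 was -0.457, where that of all genes was -0.23. The 8 sarcomeric heavy chains were all higher, but only *Myh1* and the embryonic *Myh3* (1068 and 273 in GM against 33485 and 51674 in 3d DM) had a GM library over the filter's value. Of 6 tested myosin chaperones and binding proteins, of which *Mybpc1*, *Mybpc2* and *Unc45b* were tested only through 3d DM, 5 were higher. Among these were *Unc45b*, a chaperone that folds the motor domain, which was tested only through 3d DM (22.4 and 1.02 in GM, 857 and 1318 in 3d DM), and *Mybph*, a thick filament protein (231 and 60.3 in GM, 7459 and 13608 in 3d DM).

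Further light chains and kinases were measured as well. *Mylk4*, another member of the kinase family, rose from 39.8 and 49.2 in GM to 508 and 858 in 3d DM, a log2 fold change of 3.87 ± 0.48 (SE, limma adjusted p = 7.10e-14). At 77.7 and 131 per kb it was the highest of the measured *Mylk* genes in both 3d DM libraries, above *Mylk2* at 66.3 and 72.6 and *Mylk* at 24.9 and 24.8. *Mylk3*, the cardiac kinase, did not exceed 2.40, *Myl7* was listed at 0 throughout and *Myl10* did not exceed 2.21. *Myl12a* and *Myl12b*, near-identical neighbours that encode nonmuscle regulatory chains and may share reads, did not pass, with log2 fold changes of 0.17 and -0.46.

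Genes that act on the regulatory chain or pair with the nonmuscle set were read as well. Of 7 tested phosphatase genes, 2 were higher in 3d DM, beside 7.01% of all tested genes. They were *Ppp1r12b* (log2 fold change 2.30 ± 0.57 SE), a targeting subunit tested only through 3d DM, and *Ppp1r14c* (1.64 ± 0.47 SE), an inhibitor. Among the further kinases of the list, *Dapk2* was higher in 3d DM (1.78 ± 0.45 SE) and *Cit*, the citron kinase of cytokinesis, was lower (-1.64 ± 0.47 SE). *Cit* lost its call whichever library was left out, and after median-of-ratios or trimmed-mean rescaling 4 genes of the list were lower in 3d DM in place of 1. The 2 tested nonmuscle heavy chains *Myh9* and *Myh10* did not pass, with limma adjusted p-values of 0.527 and 0.068.

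**Figure D3:**
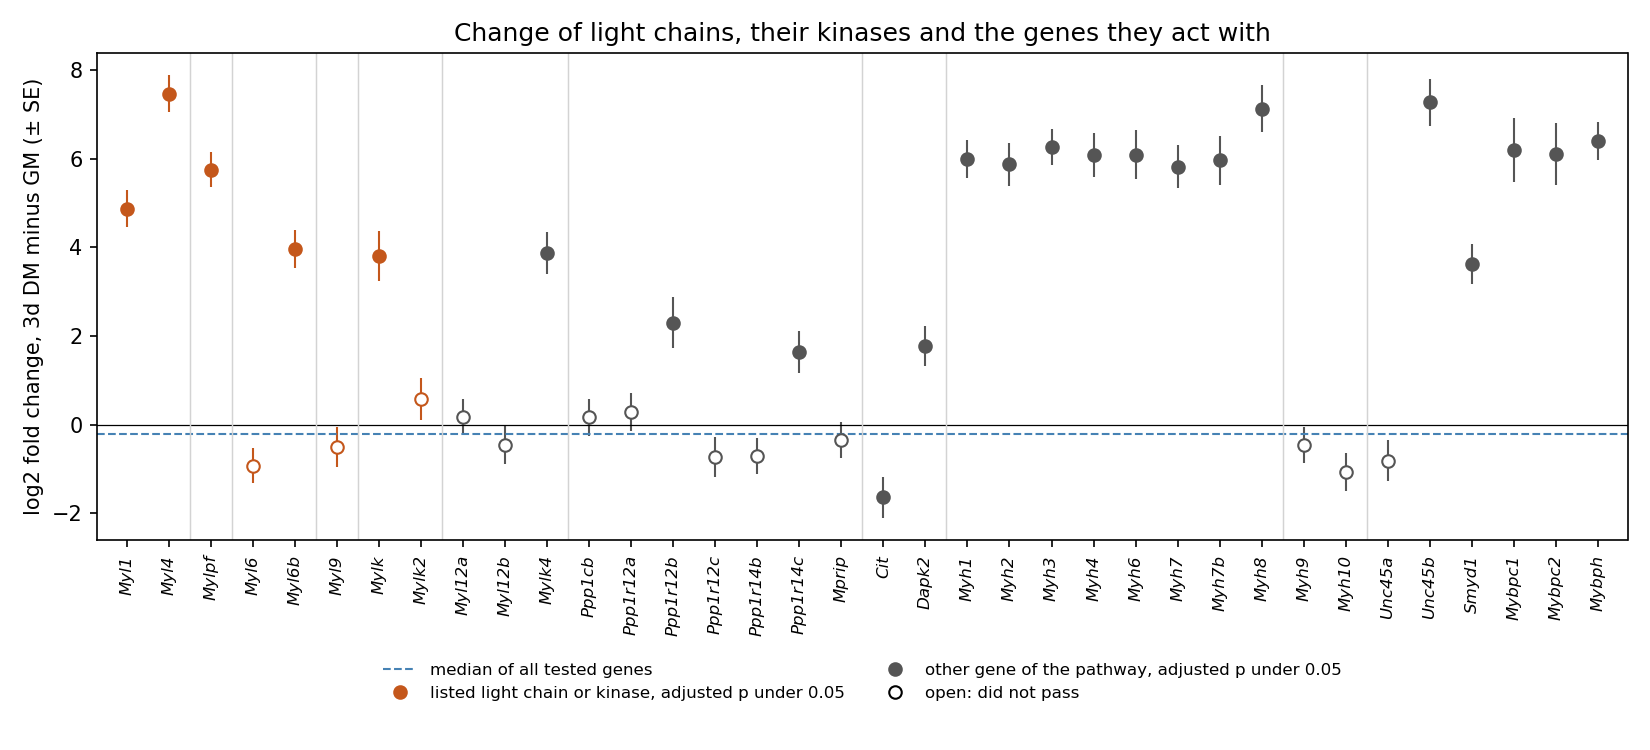
Log2 fold change, 3d DM minus GM, with the limma SE (y axis) of the tested family members (orange) and of pathway genes (grey), grouped by role, where of the further kinases only *Cit* and *Dapk2*, which passed, are drawn. Filled points passed a limma adjusted p of 0.05, the dashed line is the median of all tested genes at -0.22, and *Myl2* is left out because its GM values are listed at 0.

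In MeRIP-seq, fragments precipitated with the m6A antibody are compared with the input, and a fold above 1 means more reads in the precipitate. Of the 10 genes, 7 had a peak in at least 1 of the 4 lists and 3 (*Myl6*, *Myl6b* and *Mylk2*) in all 4. Among all tested genes with a symbol these shares were 76.2% and 42.6%. *Myl1*, *Myl3* and *Mylk* had no peak in any list, although the signal of *Myl1* was 12163 and 11893 in 3d DM. *Myl3* was barely detected there, at 1.90 and 11.6.

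The number of members with a peak did not separate the states. It was 6 and 4 in GM against 5 and 7 in 3d DM (two-sided exact permutation p = 0.67), with 63.8%, 60.4%, 62.8% and 53.5% of all tested genes carrying a peak in the same lists. Distinct peaks on the members, after merging lines that share at least 1 bp, numbered 7 and 8 in GM against 7 and 7 in 3d DM (two-sided exact permutation p = 1.00).

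Most peak lines on the family were weaker than the typical line of their list. The median fold of the members' lines was 3.81 and 3.00 in GM against 1.80 and 1.92 in 3d DM, and the median of all lines was 4.37, 3.91, 3.70 and 4.07 in the same lists. Of the members' lines, 4 of 11 and 2 of 8 in GM and 0 of 17 and 2 of 24 in 3d DM were above the median of their list. Lines repeat a peak for each transcript, so these counts are of lines and not of independent peaks.

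On the sarcomeric chains every fold in 3d DM was under its list's median. *Mylpf* had a peak in GM replicate 1 (fold 1.46) and in 3d DM replicate 2 (fold 1.40), and none in the other 2 lists. *Myl4* had a highest fold of 4.96 in GM replicate 1, where its signal was 138. In 3d DM its highest folds were 1.33 and 1.45, at a signal of 17984 and 21267. The peaks of GM replicate 1 and 3d DM replicate 1 lay near the start of the coding sequence. That of 3d DM replicate 2 lay at its end and in the 3' UTR, so these folds are not of a shared peak. The part of expression and of position in this difference was not tested. *Myl2* had peaks only where it was detected, with a highest fold of 2.18 and 2.54 in 3d DM.

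**Figure D4:**
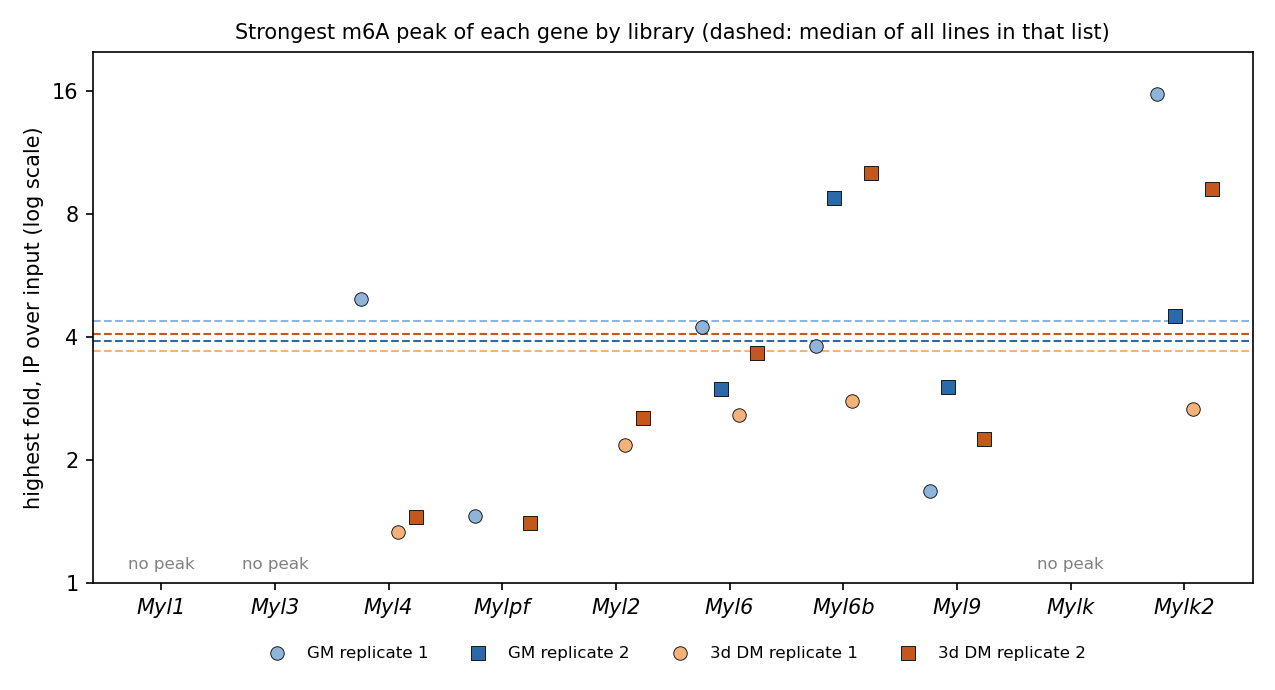
Highest fold of precipitate over input among the peak lines of each gene (y axis, log scale) in each of the 4 lists, with the median fold of all lines of each list as a dashed line in the same colour. *Myl1*, *Myl3* and *Mylk* have no peak, and *Mylpf* and *Myl2* stay under the dashed lines.

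The 3 genes with a peak in all 4 lists did not shift together. The highest fold of *Myl6* was 4.23 and 2.98 in GM against 2.58 and 3.65 in 3d DM, that of *Mylk2* 15.7 and 4.5 against 2.67 and 9.19, and that of *Myl6b* 3.81 and 8.74 against 2.79 and 10.1. The ranges of the states overlapped for each gene. The mean log2 fold over the 3 genes was 2.66 and 2.29 in GM against 1.42 and 2.80 in 3d DM, a difference of -0.36 (two-sided exact permutation p = 1.00) that became 0.33 without 3d DM replicate 1. The difference for *Myl6b* ran between replicates instead, since its log2 fold was on average 1.53 higher in replicate 2 than in replicate 1, beside a median of 0.01 over the 4989 genes with a peak in all lists.

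*Myl6b* shared 206 bases of peak among all 4 lists, at chr10:128494245-128494450, in the 3' UTR from 8 to 213 nt past the last coding base. In GM replicate 1 the peak covered just these bases, and in the other 3 lists it ran into the coding sequence. *Myl6* shared 90 bases among all 4 lists, at chr10:128491933-128492022. This stretch is exonic in 1 of its 6 coding transcripts (ENSMUST00000217733.1), where it lies in a 3' UTR of 1169 nt and begins 8 nt past the last coding base, and it is intronic in the others. Gene-level values cannot show which transcripts were present. The peak lines on the other *Myl6* transcripts had folds of at most 1.90.

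*Mylk2* had peaks near the start of its coding sequence in all 4 lists, but no base common to all of them. Both GM lists and 3d DM replicate 1 shared 120 bases at chr2:152912090-152912209, in the coding sequence, and the peak of 3d DM replicate 2 lay beyond them. Both GM lists also had a peak in the 3' UTR (folds 4.67 and 3.91), where neither 3d DM list had one. *Myl9* had no base common to more than 2 lists, with coding peaks in both GM lists (folds 1.68 and 1.85) and a 3' UTR peak in GM replicate 2 (fold 3.02) and 3d DM replicate 2 (fold 2.25).

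These stretches were searched on the RNA strand for DRACH, the m6A consensus (A, G or T, then A or G, then A and C, then A, C or T). The *Myl6b* stretch held 2 such words, 1 of them GGACT, which was in 24.6% of the 7155 peak lines of 188 to 226 nt from all genes. Lines of that length held a median of 5 DRACH words. The *Myl6* stretch held 1 word, and 87.0% of the 7569 lines of 84 to 91 nt had at least 1. The *Mylk2* stretch held 4 words, against a median of 3 in the 7108 lines of 110 to 121 nt. Over all lines the members had 23.6 DRACH words per kb and all genes 23.3. The RNA around 1 word of each shared stretch is printed as DNA letters with the word in capitals, to show where the consensus lies in the peaks that recur.
Myl6b, 3' UTR, minus strand, mm10 chr10:128494315-128494343: gccgccagggctGGACTatttccttcccc
Myl6, 3' UTR of 1 transcript, minus strand, mm10 chr10:128491967-128491995: cattgtattcctAGACTtggttccagaag
Mylk2, coding sequence, plus strand, mm10 chr2:152912104-152912132: agccacagagaaAGACCtgagccccccta

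A peak does not resolve single bases, so these words are not measured sites.

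**Figure D5:**
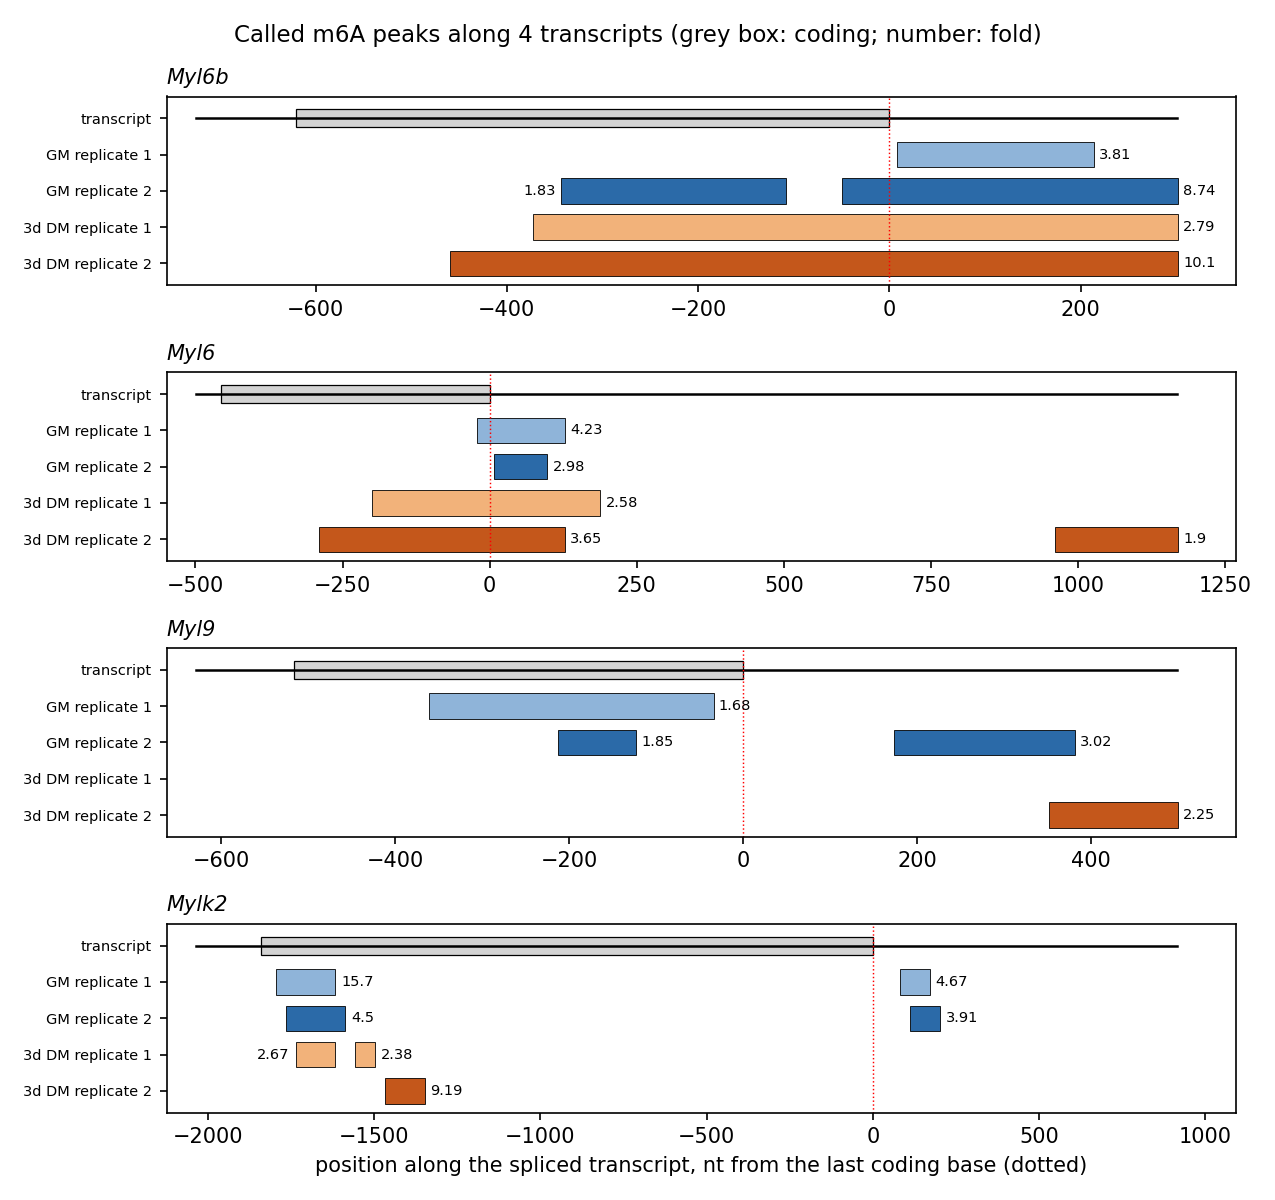
Called m6A peaks (bars, with their fold) along the spliced transcripts of *Myl6b*, *Myl6* (the transcript with the long 3' UTR), *Myl9* and *Mylk2* in the 4 lists (x axis, nt from the last coding base, with the coding sequence as a grey box). The *Myl6b* and *Myl6* bars of all 4 lists overlap just past the last coding base, and every list has a *Mylk2* bar near the start of the coding sequence.

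By region, 86.7% of the 60 member lines touched coding sequence and 48.3% the 3' UTR, beside 74.1% and 46.4% of all 112768 lines. Lines that touched both were 35.0% of the members' and 21.7% of all. These percentages are of lines, which repeat a peak for each transcript, and 16 of the 60 were on *Myl2* and 15 on *Myl6*. *Mylk4* had a highest fold of 10.1 and 11.7 in 3d DM, above those of *Mylk2* in the same lists, and peaks in its long 3' UTR. It had no peak in GM, where its signal was 39.8 and 49.2.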

How the data were processed

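Expression was taken from a deposited table of normalized signal. Its name refers to edgeR's trimmed mean of M values (TMM), and the authors made it from reads aligned to mm10 with HISAT2 (2.1.0). Column totals were nearly equal (12534657 to 12536233), reads could not be recovered, and depth is unknown, so no counting error is given. The deposited peak lists, made by the authors with exomePeak per sample against its own input, give a p-value and a fold, the ratio of precipitate over input, for each peak and transcript. Peak starts count from 0 in the files and were written from 1.

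Genes were tested if 2 or more input libraries reached 2 cpm of their column's total (a signal of 25.1), on log2(value + 1) with limma (3.58.1, R 4.3.3), an intensity trend and Benjamini-Hochberg adjustment over 11406 genes. The study's filter asked for 3 libraries and was an alternative. Shares, peak numbers and folds were compared with two-sided exact permutation tests. Exon lengths came from GENCODE M21. Python 3.11.15, pandas 2.3.3, numpy 2.4.6, scipy 1.17.1 and matplotlib 3.10.9 were used. The genes and lists were chosen with earlier results of these data known. Of the lists, all members and all further light chains and kinases are named, and at most 4 called genes of each other list. *Myl4*, *Mylpf*, *Myl2* and *Mylk* overlap other annotated genes, and the use of strand in counting is not given in the sources used here. Some genes of the pathway list are counted in its totals and are not reported here.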

Additional observations from a re-analysis of the deposited data

How the results depend on the processing

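With 2 libraries a state, many calls were lost when a library was left out. *Myl1*, *Mylpf*, *Mylk* and *Myl6b* lost their calls without 3d DM replicate 1. Their log2 fold changes were then 4.86, 5.71, 3.80 and 4.39, against 4.87, 5.75, 3.80 and 3.97 with all libraries. Called members numbered 2 without 3d DM replicate 1 (*Myl2* and *Myl4*) and between 2 and 6 over the libraries left out in turn, where the single library left in a state is assumed to vary like the others. *Mylpf* and *Myl6b* then had limma adjusted p-values of 0.0520 and 0.0511. The log2 fold change of *Mylk2* ranged from -0.40 (without GM replicate 2) to 1.55. When 2 cpm was asked of 3 libraries or of all 4, *Myl2* and *Mylk* went untested and called members fell from 6 of 9 to 4 of 7, while pathway calls fell from 18 of 39 tested to 8 of 29. Pathway calls ranged from 11 (without 3d DM replicate 1) to 17 with a library left out. All calls fell from 1936 to 1250 with the filter on 4 libraries, rose to 2276 with no filter and to 2718 and 2721 with median-of-ratios and trimmed-mean rescaling (1377 and 1367 of them higher in 3d DM, against 800), and ranged from 145 to 1252 with a library left out. Replicates share only a number in the labels, and with that number as a replicate block 6 members and 1298 genes were called. With no filter *Myl3* was called too (limma adjusted p = 0.00517). For peaks with p at or under 1e-05 the difference in distinct peaks was 1.00 in place of -0.50. With a fold of at least 4 it was -2, that in members with a peak was -1.50 in place of 1.00, and no member had a peak in all lists. The mean log2 fold difference ranged from -1.05 to 0.33 with a library left out. The causes of the peak changes were not tested.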
